A study of Homo sapiens
Mus musculus with 5 samples.

Results

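Brain tumors grown in mice from a human lung cancer line carry RNA of 2 species, so that each library can be read as a cancer compartment (human RNA) and a host compartment (mouse RNA). The comparison was made within each of 3 brain tumor libraries, of the 5 libraries in the series, between each human gene and the mouse gene of the same symbol. Genes were chosen by name only: symbols that occur once in the human table and once in the mouse table, after writing both in capitals, were joined. This gave 13244 genes, of 25524 human and 24628 mouse genes listed. The tumors were of H2030-BrM3, a brain-seeking derivative of a human lung adenocarcinoma line, in athymic nu/nu mice. These mice lack a thymus and with it most T cells, so that the host compartment is not that of an immunocompetent brain. All 3 tumors share the cell line and the mouse strain, and age, sex, treatment and route of seeding of the brain tumors are not given in the labels used here. The labels call them replicates without saying whether they came from separate animals, so that p-values measure the spread between these samples only.

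In a xenograft the tumor cells are human and the stroma, that is vessels, glia, neurons and immune cells, is murine. Signals between the compartments pass from a ligand made on one side to a receptor carried on the other. In brain metastases, astrocytes and microglia surround the growing cancer cells, vessels are taken over from the brain, and basement membrane proteins such as laminins lie between cancer cells and vessels.

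Depth was recovered from the deposited RPKM (reads per kilobase of gene, scaled to the read total of that table) as whole reads, which gives lower bounds on the true counts. For brain tumors 1, 2 and 3 the human totals came to 8419288, 6393890 and 2445904 reads and the mouse totals to 2710983, 4915553 and 8636094. The human part was thus 75.6%, 56.5% and 22.1% of the reads, and brain tumor 3 was the library with the shallowest human and the deepest mouse data. Because RPKM is scaled within each table, and the gene lengths used are not given, every gene was placed by its percentile rank in its own table and library. The difference, human minus mouse percentile, is given in points, with values above 0 where the gene ranked higher among human than among mouse genes. A gene is called higher in one table where the difference over the 3 libraries exceeded 10 points at an adjusted p under 0.05 by limma's test against a minimum difference.

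Of 12143 genes tested, 2683 (22.1%) were higher in the human table and 2572 (21.2%) higher in the mouse table, together 43.3%. The other 6888 passed neither test, and 1417 genes lay within 5 points in all 3 libraries. The median difference over all tested genes was 1.08 points, and the median absolute difference was 13.6 points. Human and mouse ranks of the same gene were loosely related across genes, with Spearman's rho of 0.368, 0.362 and 0.382 in the 3 libraries. By contrast, the same table ranked alike in different tumors (rho 0.963 to 0.988 for human and 0.953 to 0.976 for mouse genes). Genes are not independent replicates, and these values describe the tables only. Presence in both tables was common: 9805 tested genes reached an RPKM of 1 in at least 2 libraries of both tables. Another 499 did so in the human table while under 1 in all 3 libraries of the mouse table, and 1410 did so in the mouse table while under 1 in all 3 human columns.

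**Figure D1:**
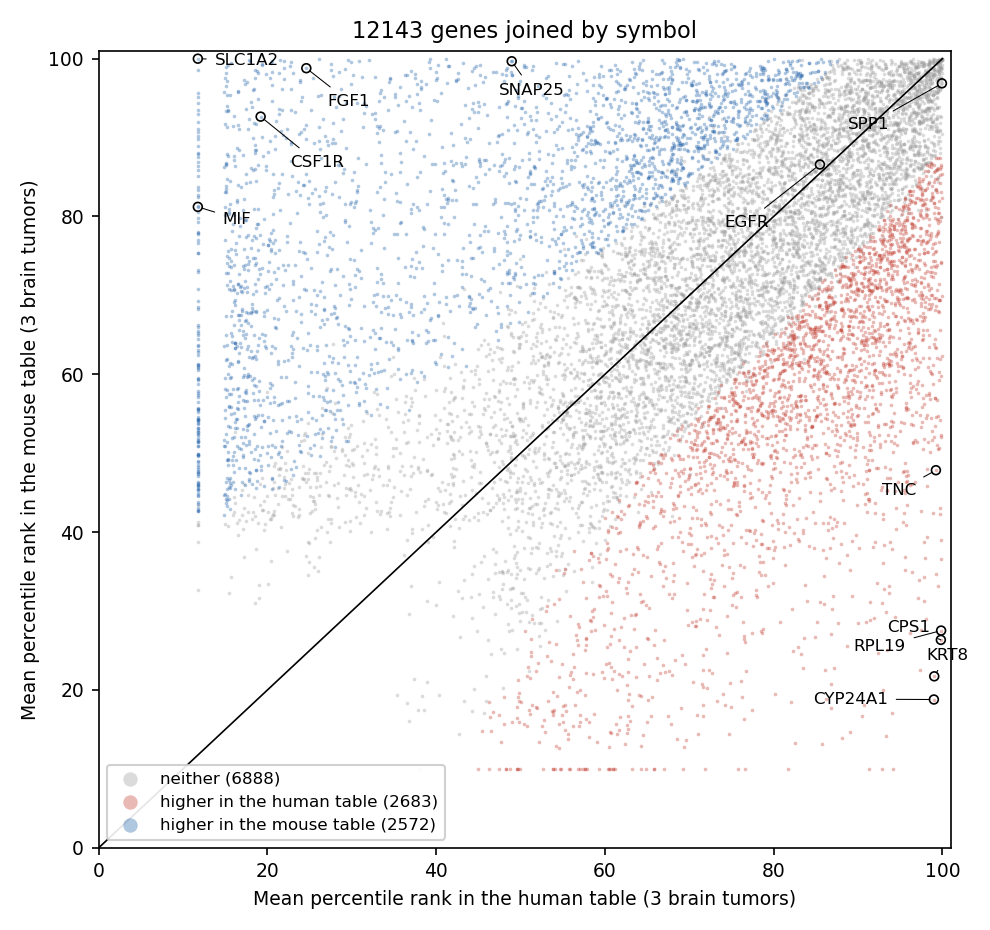
Mean percentile rank of 12143 genes in the human table (horizontal axis) and in the mouse table (vertical axis) over 3 brain tumors. Each point is a gene, red if higher in the human table (2683), blue if higher in the mouse table (2572) and grey if neither (6888), and the line marks equal rank. The blue column at the left edge holds genes listed at 0 in all 3 human columns, such as SLC1A2 and MIF.

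Several properties of the tables bound what these differences can show. A rank cannot rise past the top: 897 tested genes had a mean percentile of 90 or more in both tables, and 0 of them could be called by rank, whereas on the log2(RPKM + 1) scale, centred on the median of all genes and tested against a difference of 1, 140 were higher in the human and 70 higher in the mouse table. Values on that centred log2 scale are therefore given below for highly ranked genes. Over all tested genes that scale called 24.4% higher in the human and 26.6% higher in the mouse table. Some genes that every cell uses were low in the mouse table. The cytosolic ribosomal protein genes, for instance, had a median RPKM of 440.0 over 81 human genes and of 20.2 over 80 mouse genes, with 20 of the mouse genes under 5 in all 3 libraries. Gapdh, the glycolytic enzyme of every cell type, was listed at 10.8, 18.3 and 16.0 in the mouse table against 3384, 2467 and 3069 in the human table. How the authors' counting treated genes with many near-identical copies is not given in the sources used here, and its part in these values was not tested. A human-higher call for such housekeeping genes is therefore uncertain. The reverse also occurred: MIF, a cytokine made by most cells, was listed at 0 in all 3 human columns (31.9, 29.8 and 33.6 in mouse). In RefSeq (GRCh38.p14) its gene overlaps the antisense RNA MIF-AS1, and the part of this overlap in the value was not tested.

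Most epithelial markers that could be tested lay on the human side. Of 15 epithelial markers, 14 were joined and 9 could be tested. Of these 9, 7 (77.8%) were human-higher and 1, LCN2, was mouse-higher, beside 22.1% and 21.2% of all genes. The median difference was 56.0 points against 1.08 for all genes. Among the joined markers 8 were under an RPKM of 1 in all 3 mouse columns, so that these could be tested only through their human values. The count therefore depends in part on the filter and is no check of the labelled cancer line. Keratin 8, a filament protein of simple epithelia, had human RPKM of 428, 459 and 1343 in brain tumors 1, 2 and 3 and mouse RPKM of 0.2, 0 and 0.188. The listed RPKM did not overlap, though RPKM is scaled within each table. The mean rank difference was 77.3 ± 9.98 points (SD, n = 3, limma adjusted p = 1.06e-04). Its partner keratin 18 stood at 237, 210.5 and 604 in the human and 1.29, 0.142 and 0.405 in the mouse table. The tight junction gene CLDN7 (21.8, 16.8 and 8.43) and the adhesion gene EPCAM (116, 29.7 and 73.9) were low or at 0 in the mouse table. EPCAM ranged more widely among tumors than CLDN7, with brain tumor 2 lowest. Markers that many lung adenocarcinomas carry were listed at or near 0 in the human columns: ESRP1 was listed at 0 in all 3 human columns, KRT19 at 0.177, 0.233 and 0 and NKX2-1, the lung lineage factor, at 0.0528, 0.208 and 0. Of 12 tested neural and lung lineage transcription factors 3 (25.0%) were human-higher and 7 (58.3%) mouse-higher, beside 22.1% and 21.2% of all genes. The human-higher ones were FOXA1 (43.9, 26.8 and 34.0 human, 0.678, 0.0624 and 0.142 mouse), KLF5 (77.4, 89.7 and 110.2 human) and SOX4.

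Brain cell markers lay on the mouse side. For the counts that follow, the shares over all tested genes were 21.2% mouse-higher and 22.1% human-higher. Among astrocyte markers, 7 of 8 tested genes were higher in the mouse table and 0 in the human table (median -31.2 points). SLC1A2, the main glutamate transporter of astrocytes, had mouse RPKM of 7746, 9501 and 7729 and was listed at 0 in every human column, the widest difference of all named genes (-88.2 ± 3.77 points, adjusted p = 8.85e-05). GFAP, the astrocyte filament protein, followed with 2521, 1889 and 1343 in mouse and 0, 2.37 and 0 in human columns. All mouse values of both genes exceeded all human values by a wide margin. APOE, the lipid carrier made by astrocytes, stood at 9106, 8179 and 4948 in mouse and 28.0, 42.1 and 51.4 in human columns. SOX9 passed neither test (difference -15.4 points, adjusted p = 0.0556), with 3.82, 6.38 and 5.08 in the human table. On the centred log2 scale SOX9 was mouse-higher (-2.20, adjusted p = 0.00343).

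Neuron markers were higher in the mouse table in 9 of 10 tested genes (median -52.6 points). SYT1, the calcium sensor of synaptic vesicles, stood at 199.8, 345 and 327 in mouse and 0, 0.424 and 0 in human columns. NEFM, a neurofilament subunit, stood at 86.6, 31.6 and 90.7 against 0.0923, 0 and 0. The exception was MAP2, a microtubule protein of dendrites, which was high in both tables: 406, 708 and 697 in human and 634, 950.0 and 515 in mouse columns. Human MAP2 thus overlapped mouse MAP2, and the difference was -0.539 points by rank and -0.56 on the centred log2 scale (adjusted p = 1.00). Small human values were seen for other neuronal genes and differed by library, with GAD1 at 2.57, 4.69 and 9.85 and SNAP25 at 0.565, 1.56 and 3.12 in the human columns. They were highest in brain tumor 3, the library with the largest mouse share (mouse SNAP25 677, 703 and 1066), and the part of reads assigned to the wrong species was not tested.

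Oligodendrocyte markers were higher in the mouse table in 5 of 7 tested genes, among them the myelin gene MOBP (778, 389 and 462). MBP, a major myelin protein, also had human RPKM of 169, 178 and 120.3 against mouse RPKM of 2526, 1171 and 1706. Its ranks were both near the top and the rank difference of -6.01 points passed no test, but on the centred log2 scale MBP was higher in the mouse table (-3.82, adjusted p = 3.04e-05). Of precursor markers, 3 of 4 were higher in the mouse table, among them the growth factor receptor PDGFRA (97.4, 112 and 58.9 mouse, 0.483, 0.318 and 0.835 human). Endothelial markers were on the mouse side in 8 of 8 tested genes (median -49.4 points). FLT1, a VEGF receptor of vessels, stood at 79.9, 69.0 and 52.4, and MFSD2A, a lipid transporter of the blood-brain barrier, at 75.9, 73.0 and 74.0. The endothelial list summed to 579, 455 and 313 RPKM in the mouse table and to 3.71, 3.54 and 5.21 in the human table.

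Microglia and macrophage markers were higher in the mouse table in 4 of 5 tested genes (median -60.3 points), but the level varied by tumor. CSF1R, the receptor on which microglia depend, stood at 129.8, 130.3 and 50.1, and TMEM119, a marker of resident microglia, at 61.5, 55.0 and 6.16. CX3CR1 stood at 69.3, 58.5 and 2.7. Brain tumor 3 was the lowest in each, and the list summed to 2174, 2101 and 650.1 RPKM. In bulk tumors fewer cells of a type and less RNA per cell cannot be told apart. Pericyte and smooth muscle markers split: PDGFRB, ANPEP and MYH11 were higher in the mouse table, while ACTA2 and TAGLN passed neither test and had human RPKM of 18.7, 16.0 and 10.9 and 18.7, 43.5 and 24.6. Of fibroblast and meningeal markers FBLN1 was higher in the human table (83.0, 80.1 and 75.8 human, 23.0, 10.2 and 8.63 mouse), and PDGFRA in the mouse table. FBLN1 was not called without brain tumor 2 (17.7 points, adjusted p = 0.0721), nor MYH11 without brain tumor 1 (-28.3 points, adjusted p = 0.0890). Among blood cell markers, PTPRC, the pan-leukocyte antigen, was on the mouse side at 14.1, 10.6 and 4.48, and S100A9 on the human side at 470.3, 314 and 124 against 6.99, 1.54 and 5.06. S100A8, which forms a dimer with S100A9, was likewise higher in the human table. The choroid plexus and ependymal list gave 1 mouse-higher gene, FOXJ1, of 3 tested.

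**Figure D2:**
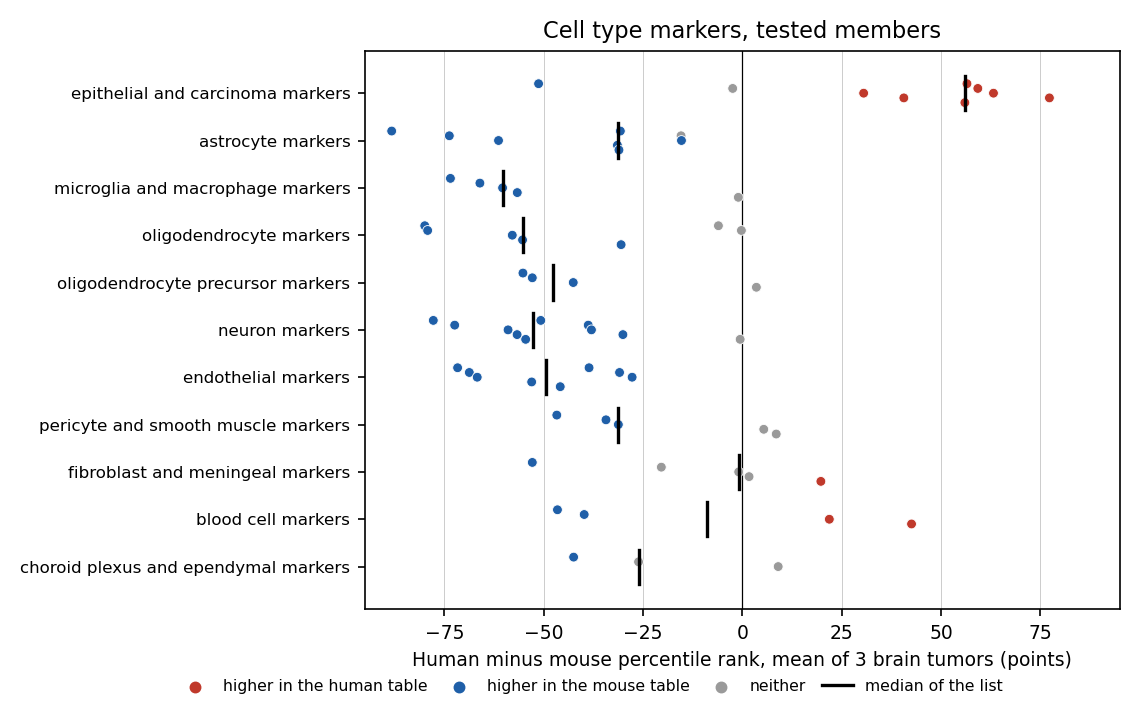
Human minus mouse percentile rank (points, mean of 3 brain tumors) of the tested members of 11 cell type marker lists. Each point is a gene, coloured by its call, and the black bar is the median of the list. Epithelial markers lie to the right (median 56.0), and neuron (median -52.6), endothelial (median -49.4) and microglia (median -60.3) markers to the left.

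The join left out part of the host identity. Of mouse genes that reached an RPKM of 1 in 2 or all of the brain tumors, 859 have a human RefSeq symbol that was not listed in the human table, and 69 of them had a mean mouse RPKM of 100 or more. Among these were APOD (3285, 3043 and 3659.8), PTGDS (2032, 1477 and 1857), the synaptic kinase CAMK2A (695, 1395 and 963), the complement gene C1QA (504, 511 and 151) and the water channel AQP4 (237, 152 and 118). The same group held RACK1 and CSNK2B, which are used by all cells, so that a gene not listed in the human table is not a measured 0. Counts of host markers above thus cover only those that could be paired.

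The 12 genes furthest to the human side, among those with an RPKM of at least 10 in every human column, were CPNE1, CALCOCO2, FAM83A, CYP24A1, CDCP1, KRT8, ABCC2, SPATA20, FAM83E, RBM42, SCAMP4 and CPS1. CYP24A1, the enzyme that inactivates vitamin D, had human RPKM of 1257, 773 and 349, lowest in brain tumor 3, and mouse RPKM of 0.101, 0 and 0.0955. The difference was 80.2 ± 8.06 points (adjusted p = 9.13e-05). CPS1, the first enzyme of the urea cycle, was among the most abundant human genes at 3056, 2369.8 and 1019 and stood at 0.324, 0.0717 and 0.184 in mouse. FAM83A, known for acting in EGF receptor signalling, stood at 197, 94.4 and 85.2 and was listed at 0 in every mouse column. CDCP1, a membrane protein phosphorylated by Src kinases, stood at 176, 119 and 137 and ABCC2, an export pump, at 200.4, 188 and 109. CPNE1, CALCOCO2, SPATA20, RBM42 and SCAMP4 belong to genes used in many tissues, and their mouse genes were at or near 0, so that the uncertainty given above for housekeeping genes covers them. Of all 2683 genes higher in the human table, 190 had a mouse gene under an RPKM of 1 in all 5 libraries of the series.

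Opposite them, the 12 genes furthest to the mouse side included SLC1A2, GRIN2B, CX3CL1, GSTM5, SNPH, RASGRF1, SLC24A2, TNR, AK5, CRMP1 and TTYH1. GRIN2B, a subunit of the NMDA glutamate receptor, had mouse RPKM of 196, 610.0 and 381 with 0 in each human column. TNR, a matrix protein of perineuronal nets, stood at 175, 298 and 204 in mouse columns. GSTM5 belongs to a family of closely similar genes and is uncertain. The chemokine CX3CL1, which neurons present to microglia, stood at 421, 612 and 398. For each of these 12 genes the human value was under an RPKM of 1 in all 3 columns. More widely, 1014 of the 2572 mouse-higher genes had a human gene under 1 in all 5 libraries of the series. Leaving such genes out removes mouse-higher calls by construction and gave 2663 human-higher and 1534 mouse-higher genes (63.5% of calls human-higher, in place of 51.1%). Leaving out the genes whose mouse gene was under 1 in all 5 libraries removes human-higher calls in the same way and gave 2485 and 2561 (49.2%), and both settings were chosen after seeing the data.

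Cell division genes lay on the human side. Of 26 cell cycle genes, 25 (96.2%) were higher in the human table and 0 in the mouse table, beside 22.1% and 21.2% of all genes. The median difference was 43.6 points. CCNB1, the mitotic cyclin, stood at 403, 323 and 274 in the human and 0.305, 1.01 and 0.288 in the mouse columns (63.4 ± 5.84 points, adjusted p = 9.13e-05). The mitotic kinesin KIF20A stood at 168, 154 and 94.3 against 0.505, 0.67 and 0.0954, and CENPF at 309, 379 and 464 against 1.07, 1.78 and 0.281. TOP2A, which untangles replicated DNA, had mouse RPKM of 11.7, 15.6 and 0.847, and its difference was smallest in brain tumor 2. PCNA, the DNA clamp of replication and repair, passed neither test (73.0, 60.5 and 105 human, 25.4, 28.0 and 29.6 mouse).

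Of 19 glycolysis genes 3 (15.8%) were human-higher and 4 (21.1%) mouse-higher, near the 22.1% and 21.2% of all genes. On the centred log2 scale 7 were human-higher and 5 mouse-higher. ENO2, the neuronal enolase, stood at 924, 1029 and 1212 in mouse and 17.8, 10.4 and 7.76 in human columns, and ALDOC, the brain aldolase, at 2726, 1848 and 2574 against 27.0, 6.9 and 12.4. HK1, the main brain hexokinase, was also higher in the mouse table (484, 567 and 639 against 19.6, 9.68 and 8.12). PGK1, GAPDH and PGAM1 were higher in the human table, where the low mouse values fall under the uncertainty given above. ENO1 ranked near the top in both tables but was higher in the human table on the centred log2 scale (4.71, adjusted p = 1.93e-06). So were LDHA (2.38, adjusted p = 4.27e-04) and PKM (2.39, adjusted p = 2.02e-04), enzymes of the last steps. The uncertainty given above for housekeeping genes covers ENO1, LDHA and PKM too. Of 22 nuclear respiratory chain genes 1 (4.55%) was human-higher and 3 (13.6%) mouse-higher by rank, both below the shares over all genes. On the centred log2 scale the counts were 1 and 7. The 6 joined mitochondrially encoded genes had a median difference of 0.012 points, all near the top of both tables, and on the centred log2 scale 1 of them, MT-ND4, was human-higher (2.01, adjusted p = 0.00137).

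Of 21 tested sterol synthesis genes 7 (33.3%) were human-higher, 1 (4.76%) mouse-higher and 13 neither, beside 22.1% and 21.2% of all genes, with a median of 5.90 points. FDPS, an enzyme of isoprenoid synthesis, stood at 338, 261 and 234 against 4.44, 2.68 and 2.67, and IDI1, the enzyme just before it, at 60.7, 53.7 and 45.1 against 0.484, 1.34 and 1.07. The low mouse values of both fall under the uncertainty given above for housekeeping genes. Among 16 tested NRF2 targets 4 (25.0%) were human-higher and 2 (12.5%) mouse-higher, the former share near the 22.1% of all genes. The human-higher genes included NQO1, a quinone reductase, at 3467, 2891 and 2692 against 10.9, 6.67 and 8.17, and TXNRD1, thioredoxin reductase, at 2142, 2313 and 1053 against 32.4, 30.5 and 24.2. The mouse-higher genes were SRXN1 and AKR1B10. SRXN1, a sulfiredoxin, stood at 2.19, 2.43 and 1.04 in human and 339, 329 and 271 in mouse columns. AKR1B10, an aldo-keto reductase, stood at 0.753, 0.594 and 0 in human and 19.4, 17.8 and 15.7 in mouse columns. The part of the authors' counting in the low human values of both was not tested. Genes were joined by symbol only, and whether human and mouse AKR1B10 are counterparts was not tested. Of 23 interferon response genes 4 (17.4%) were human-higher and 3 (13.0%) mouse-higher, both below the shares over all genes. ISG15, a ubiquitin-like protein, stood at 222, 23.1 and 84.4 in human columns, with the lowest value in brain tumor 2. BST2 was mouse-higher but not without brain tumor 1 (adjusted p = 0.0601) or 2 (adjusted p = 0.127). GBP2, an interferon-induced GTPase, stood at 12.6, 6.85 and 3.63 in mouse and 0.571, 0.107 and 0.141 in human columns. Cytosolic ribosomal proteins were human-higher in 14 of 24 genes (58.3%), led by RPL19 (2081, 1702 and 1935 against 0, 1.62 and 0.154), with the uncertainty given above.

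Synaptic genes lay on the mouse side. Of 17 tested synaptic vesicle genes 13 (76.5%) were higher in the mouse table and 0 in the human table. Of 14 glutamate and GABA receptor subunits the counts were 13 (92.9%) and 0. Over all genes the shares were 21.2% and 22.1%. SV2B, a vesicle protein, stood at 72.2, 135 and 111 in mouse and 0, 0.0493 and 0 in human columns. STX1A, which acts in vesicle fusion, passed neither test, with human RPKM of 45.1, 39.2 and 21.1. Of 13 tested amino acid and transmitter transporters, 6 (46.2%) were mouse-higher and 1 (7.69%) human-higher by rank. The latter was SLC1A5, a glutamine carrier (71.8, 59.9 and 72.9 against 13.8, 19.8 and 7.73). On the centred log2 scale 4 were human-higher and 6 mouse-higher, beside 24.4% and 26.6% of all genes. The human-higher genes there were SLC1A5, SLC38A2 (3.32, adjusted p = 3.34e-05), SLC7A1 (1.90, adjusted p = 0.00274) and SLC7A11 (1.55, adjusted p = 0.0487). The neuronal factors NEUROD2 (10.8, 22.5 and 24.2) and TBR1 (25.2, 69.4 and 17.8) were higher in the mouse table, as was the oligodendrocyte factor OLIG2 (17.7, 17.2 and 11.9).

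**Figure D3:**
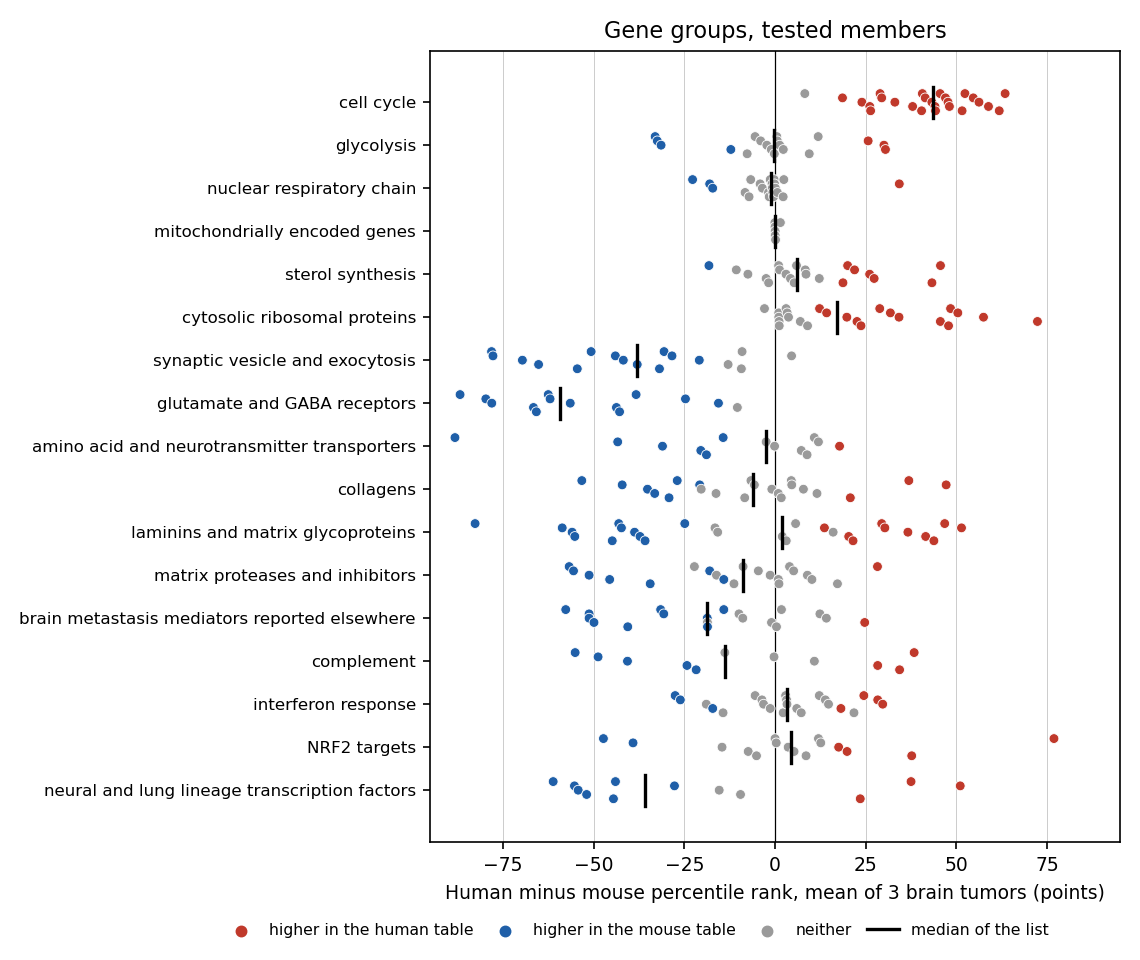
Human minus mouse percentile rank (points, mean of 3 brain tumors) of the tested members of 17 gene groups. Each point is a gene, coloured by its call, and the black bar is the median of the group. Cell cycle genes lie to the right (median 43.6), glutamate and GABA receptors to the left (median -59.2), and mitochondrially encoded genes at 0.

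Matrix genes divided by chain. Of 27 tested laminins and matrix glycoproteins 10 (37.0%) were higher in the human and 11 (40.7%) higher in the mouse table, beside 22.1% and 21.2% of all genes. The human side held the laminin chains LAMA3 (94.0, 53.7 and 41.1 against 0.672, 1.19 and 0.394), LAMA5 (1517, 1850.0 and 1775 against 50.6, 58.8 and 35.2), LAMB1 (1163, 755 and 1456 against 18.3, 11.7 and 12.8) and LAMB3. The mouse side held LAMA2 (16.2, 10.5 and 14.1 against 0.227, 0.239 and 0.392) and LAMA4, the chain of vessel walls (15.7, 11.2 and 3.02 against 0, 0.223 and 0). TNC, tenascin-C, a matrix glycoprotein of tumors and wounds, stood at 917, 559 and 635 in human and 3.57, 1.69 and 1.63 in mouse columns (51.4 ± 2.82 points, adjusted p = 8.85e-05). Perlecan (HSPG2) and agrin (AGRN), proteoglycans of basement membranes, were human-higher too, with HSPG2 at 165, 305 and 279.8 against 5.85, 5.5 and 2.73. On the mouse side were SPARC (2882, 1272 and 2149 against 0.603, 0.529 and 0.694) and the brain matrix genes TNR, NCAN (149, 115 and 44.0 against 0.316, 0.312 and 0.546) and VCAN. LAMB2 and LAMC1 were high in both tables and passed neither test by rank, while on the centred log2 scale LAMC1 was human-higher (2.53, adjusted p = 1.11e-04) and LAMB2 was not called (1.55, adjusted p = 0.0542).

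Osteopontin (SPP1), a secreted phosphoprotein of many tumors and of activated macrophages, illustrates the limit of ranks. Its human RPKM was 3674, 5348 and 2367 and its mouse RPKM 344, 309 and 94.5, and these listed values did not overlap. The rank difference was 3.07 points and passed no test, while on the centred log2 scale it was higher in the human table (3.70, adjusted p = 2.67e-05). The membrane protease MMP14 was a like case, at 1512, 1365 and 1342 against 102, 58.7 and 46.2 (4.06 on the centred log2 scale). Of the tissue inhibitors of metalloproteases, TIMP1 was human-higher (2974, 1277 and 675 against 43.3, 10.2 and 9.25), and TIMP3 mouse-higher (203, 152 and 184 against 0.604, 0.397 and 0.956). TIMP2 passed neither test by rank and was mouse-higher on the centred log2 scale (-2.03, adjusted p = 0.00145). Cathepsin S, a protease of immune cells, was mouse-higher (519, 435 and 159 against 0.812, 0.641 and 2.81), whereas CTSB, CTSD, CTSL and CTSZ passed neither test by rank, and CTSZ was human-higher on the centred log2 scale (1.65, adjusted p = 0.0206).

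Of 22 tested collagens 3 (13.6%) were human-higher and 7 (31.8%) mouse-higher, beside 22.1% and 21.2% of all genes. COL4A5, a basement membrane chain, stood at 249.8, 431 and 323 in human and 3.53, 2.89 and 2.36 in mouse columns, while the main chain COL4A1 stood at 9.46, 7.21 and 7.43 against 661, 414 and 199. The cancer and host columns thus held different type IV chains as their most abundant one among those joined. Fibrillar collagen values differed between tumors: COL3A1 had human RPKM of 9.58, 136 and 47.1 and mouse RPKM of 187, 20.8 and 15.1, so that its difference was -32.0, 18.3 and 11.0 points in brain tumors 1, 2 and 3. It thus ranked higher in the mouse table in brain tumor 1 and higher in the human table in the other two. COL1A1 and COL1A2 also passed neither test, with human COL1A2 at 0.979, 25.9 and 5.31.

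Of 19 tested genes named elsewhere as mediators of brain metastasis, 10 (52.6%) were mouse-higher, 8 neither and 1 (5.26%) human-higher. Over all genes 21.2% were mouse-higher and 22.1% human-higher. The human-higher gene was ANGPTL4, a secreted lipase inhibitor (256, 211 and 57.2 against 14.5, 14.9 and 8.85). Serpin I1 (SERPINI1, neuroserpin) and L1CAM, an axon and tumor cell adhesion molecule, were higher in the mouse table, yet both were present in the human columns at 33.4, 34.0 and 50.9 and 39.6, 28.8 and 28.9. PCDH7, a protocadherin, was at similar ranks in both, with 81.8, 77.6 and 101 in human and 42.7, 54.4 and 56.2 in mouse columns. LCN2, an iron-binding secreted protein, was mouse-higher (98.1, 156 and 31.2 against 0.183, 1.21 and 0.634), and ST6GALNAC5, a sialyltransferase of brain, was mouse-higher as well, with 0.588, 0 and 0.508 in the human columns. Complement was divided: of 11 tested genes 3 (27.3%) were human-higher and 5 (45.5%) mouse-higher, beside 22.1% and 21.2% of all genes. The membrane inhibitors CD46 and CD55 and the protease CFD were human-higher, with CD55 at 125, 69.7 and 50.6 against 4.07, 4.5 and 2.83. Genes were joined by symbol only, and whether CD46 is used in the same tissues of both species was not tested. The soluble inhibitor SERPING1 was mouse-higher (48.7, 27.4 and 29.4 against 0.848, 0.637 and 0.418).

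The ligand and receptor comparison used 236 pairs with 192 ligands and 176 receptors. Of 144 tested ligands 33 (22.9%) were human-higher and 49 (34.0%) mouse-higher, beside 22.1% and 21.2% of all genes. Of 132 tested receptors 22 (16.7%) were human-higher and 52 (39.4%) mouse-higher. The medians were -8.61 and -10.1 points, against 1.08 for all genes.

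Of 7 tested ligands of the EGF family AREG, BTC and NRG4 were human-higher by rank and 4 passed neither test. On the centred log2 scale BTC was not called (1.48, adjusted p = 0.114) and NRG1, a neuregulin, was mouse-higher (-2.40, adjusted p = 0.0021). The family summed to 186, 69.6 and 56.0 RPKM in human and 61.3, 70.5 and 76.5 in mouse columns. Within the human table the sum was highest in brain tumor 1. Because RPKM is scaled within each table, these sums do not tell which compartment was higher. AREG, amphiregulin, stood at 148, 37.4 and 18.4 in human columns, highest in brain tumor 1, and at 0 in every mouse column. EGFR, its receptor, was found in both compartments at like ranks (56.5, 64.7 and 70.2 human, 53.9, 52.0 and 40.5 mouse, -1.1 points). ERBB3 was human-higher (23.3, 43.1 and 17.0 against 2.52, 2.85 and 1.02) and ERBB4 mouse-higher (34.3, 35.7 and 28.6 against 0.528, 2.08 and 0.547). MET, the receptor of hepatocyte growth factor, was human-higher (235, 223 and 96.0 against 6.01, 3.37 and 3.33), and so was the related MST1R, while the HGF gene could not be paired. The fibroblast growth factors FGF1 (443, 242 and 417 against 0.237, 0.156 and 0) and FGF2 (174, 91.0 and 66.6 against 0.273, 1.01 and 2.48) were mouse-higher, and FGF9 passed neither test (14.7, 8.7 and 16.2 mouse, 13.1, 12.8 and 12.2 human). The receptors FGFR2 and FGFR3 were mouse-higher as well, with FGFR3 at 271, 219.8 and 221 against 0.544, 0.414 and 0.099, whereas FGFR1 passed neither test with 54.7, 52.5 and 56.9 in human columns.

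DKK1, a secreted Wnt inhibitor, stood at 104, 75.1 and 34.5 in human and 0, 0 and 0.0467 in mouse columns (72.5 ± 9.22 points, adjusted p = 1.34e-04), and the Wnt enhancer RSPO3 at 131, 130.1 and 25.7 against 3.31, 7.07 and 4.07. WNT7A, a brain vessel signal, was on the mouse side (58.3, 40.9 and 55.0 against 0.654, 1.43 and 0.753). Of the Notch genes, JAG2 and NOTCH3 were human-higher and DLL1 and NOTCH1 mouse-higher, with JAG2 lost without brain tumor 1 (15.8 points, adjusted p = 0.111), NOTCH3 at 161, 212 and 227 against 8.92, 7.42 and 5.4 and NOTCH1 at 215, 198 and 192 against 13.2, 12.3 and 13.5. In the TGF-beta superfamily BMP4 (49.8, 38.5 and 75.5 against 2.65, 3.05 and 1.46), BMP7 (154, 123 and 171 against 14.4, 11.2 and 7.46) and TGFB3 were human-higher. TGFB1 passed neither test by rank (13.1 points, adjusted p = 0.314) and was higher in the human table on the centred log2 scale (2.16, adjusted p = 0.00572).

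Among vessel growth factors PDGFC was human-higher (33.4, 73.2 and 126 against 4.09, 5.02 and 2.09), with no overlap of the listed RPKM. PDGFD was mouse-higher, a call that was lost without brain tumor 1 (-21.1 points, adjusted p = 0.0567). VEGFA, the chief signal for vessel growth, was in both compartments: 41.7, 42.5 and 76.1 in human and 103, 105 and 73.2 in mouse columns (-9.95 points, adjusted p = 0.837). Its receptor FLT1 was mouse-higher, with 0, 0.238 and 0 in human columns.

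IL6 was human-higher by rank at low levels (4.09, 6.97 and 1.57 against 0, 0.189 and 0) but not on the centred log2 scale (1.80, adjusted p = 0.0542). IL18 was human-higher at 57.0, 77.9 and 69.0 against 12.8, 14.7 and 10.7. LIF passed neither test (8.32, 10.8 and 2.46 human, 0.569, 0.734 and 2.54 mouse). OSMR, the oncostatin M receptor, was human-higher (461, 523 and 351 against 25.3, 27.8 and 18.7). TNFRSF10B, a TRAIL death receptor, was human-higher (80.4, 77.3 and 147 against 0.796, 0.753 and 0.894), and FAS likewise. The chemokines CCL2 (50.5, 22.8 and 42.9 against 4.15, 4.59 and 4.16), CCL20 and CXCL2 were human-higher, and CX3CL1, CXCL12, CCL5 and CCL28 mouse-higher. CCL20 was low in human columns (1.1, 1.65 and 1.08) and was not called on the centred log2 scale (0.82, adjusted p = 1.00). All 3 tested chemokine receptors, CX3CR1, CXCR4 and CCR1, were mouse-higher, beside 21.2% of all genes. Of 13 chemokine receptors in the pairs, 7 were listed in the mouse table only and 6 were joined. These 6 were under an RPKM of 1 in all 3 human columns, so that each could be tested only through its mouse values. CXCR4 stood at 19.2, 12.6 and 7.96 in mouse and 0, 0 and 0.238 in human columns. CCR1 was not called without brain tumor 1 (-26.7 points, adjusted p = 0.106) or without brain tumor 2 (-33.8 points, adjusted p = 0.0661). The colony stimulating factors CSF1 (44.3, 27.0 and 23.4 against 8.15, 5.28 and 4.76) and IL34 (44.3, 54.3 and 29.1 against 0.136, 0 and 0.469) and the receptor CSF1R were mouse-higher. LTBR, the lymphotoxin receptor, was listed near 0 in human columns (0.147, 0 and 1.02). This value, like that of MIF, is uncertain. In RefSeq the LTBR gene overlaps SCNN1A. Overlaps were looked up for MIF and LTBR only, after their values were seen, and their part in these values was not tested.

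**Figure D4:**
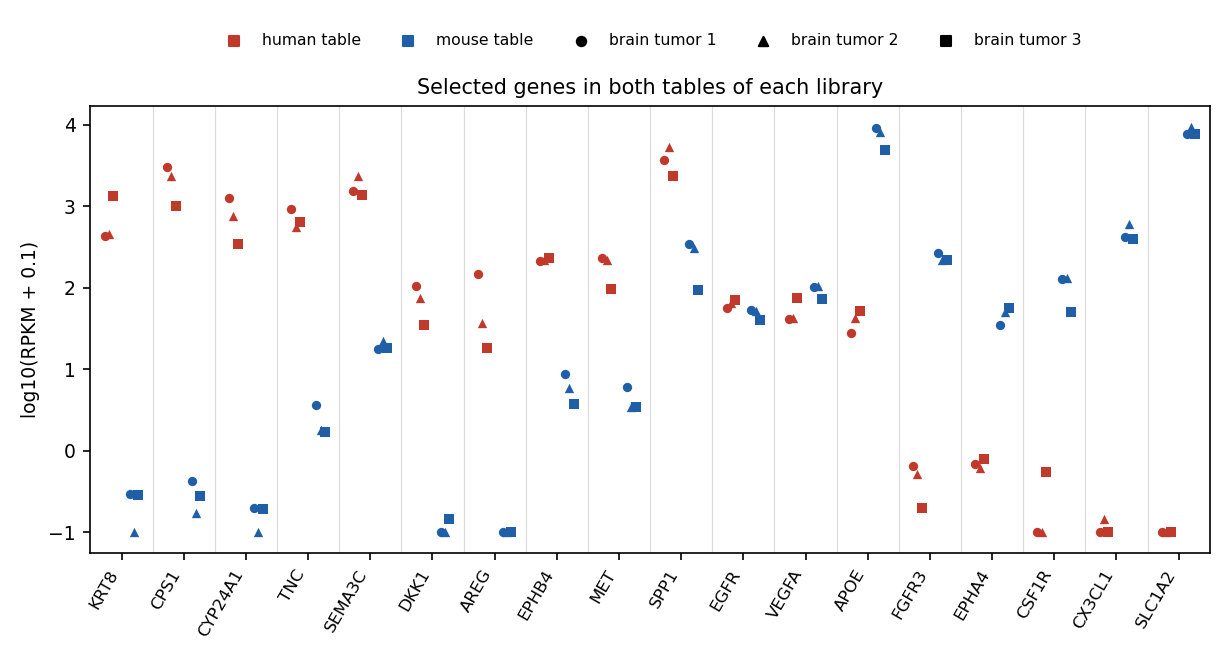
RPKM of 18 genes in the human table (red) and the mouse table (blue) of each brain tumor, as log10(RPKM + 0.1), so that a value of 0 is drawn at -1. Point shapes mark the 3 libraries. Human and mouse points of EGFR and VEGFA lie together, those of SPP1 are apart although both rank near the top, and AREG and SLC1A2 sit at 0 in one of the tables.

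Of the 236 pairs, 152 had both members tested, and 101 of these had 1 or both members called neither. Of tested ligands 22.9% were human-higher and 34.0% mouse-higher, and of tested receptors 16.7% and 39.4%. The number of pairs that these shares alone would give was not computed. The pair counts here and below are therefore descriptions and no result about signalling. A ligand higher in the human table met a receptor higher in the mouse table in 11 pairs, made of 10 ligands and 10 receptors. Ordered by the smaller difference of the 2 members, the first pair was PDGFC, at 33.4, 73.2 and 126 in human columns, with PDGFRA, at 97.4, 112 and 58.9 in mouse columns. Next came TNC with the integrin chain ITGA9 (33.3, 23.0 and 9.6 in mouse and 0.561, 0.737 and 0.553 in human columns). Ephrins, membrane-bound guidance signals, gave 3 pairs: EFNA5 (94.6, 119.8 and 139 against 7.09, 5.37 and 6.59) with EPHA4 and EPHA7, and EFNA1 with EPHA4. EPHA4, a receptor of neurons and astrocytes, stood at 34.6, 50.3 and 56.6 in mouse and 0.597, 0.524 and 0.688 in human columns.

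Semaphorins, secreted axon guidance signals, gave another 2 of these pairs. SEMA3C was one of the most abundant human ligands (1543, 2372 and 1369.7 against 17.9, 22.5 and 18.4), and its receptor NRP2 stood at 11.3, 12.9 and 6.04 in mouse and 0.432, 0.568 and 0 in human columns. SEMA3A stood at 629, 944 and 336 against 6.95, 9.6 and 7.04, with PLXNA1 at 169, 193 and 159 against 52.0, 47.0 and 33.9. NRP1, also paired with SEMA3A, passed neither test, at a mean RPKM of 30.2 in human and 10.1 in mouse columns (13.2 points). BMP4 with BMPR1A (111, 99.7 and 108 mouse, 5.95, 5.79 and 7.74 human), BMP7 with BMPR2, NRG4 with ERBB4, and THBS1 with CD47 completed the 11. THBS1, thrombospondin-1, varied most among these ligands, at 51.4, 159.7 and 340.3, with the highest value in brain tumor 3. CD47 was not called when any 1 of the 3 tumors was left out (adjusted p of 0.135, 0.225 and 0.0501), nor BMPR2 without brain tumor 2 (adjusted p = 0.0520). A pair says only that the RNA of each member ranked higher in one compartment, and binding was not measured.

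In the opposite direction 6 pairs had a mouse-higher ligand and a human-higher receptor. EFNB2, an ephrin of arteries, stood at 16.4, 26.0 and 11.4 in mouse and 0.337, 0.546 and 0.359 in human columns, and EPHB4 at 216, 223 and 235 in human and 8.7, 5.83 and 3.7 in mouse columns. Fibronectin (FN1, 143, 84.1 and 53.3 against 7.56, 17.2 and 12.1) was paired with the integrin chain ITGA5 (75.2, 47.1 and 23.8 against 9.14, 5.00 and 1.58). COL4A1 with ITGA1, LAMA2 with DAG1 and RSPO2 with LGR4 were also among these pairs. RSPO2 rested on low mouse values (0.976, 3.35 and 1.47). Without brain tumor 2 the count was 3 in place of 6, since RSPO2 (adjusted p = 0.0829), LGR4 (0.253), ITGA1 (0.0793) and DAG1 (0.0816) were no longer called. Without brain tumor 1 it was 4, with ITGA1 (0.0787) and LGR4 (0.0595) lost.

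Both members were human-higher in 8 pairs and mouse-higher in 26. In the same order, the first human pairs were MST1 with MST1R (67.7, 49.8 and 24.6 against 0.813, 0.374 and 0.469), CDH1 with ITGAE and EFNA1 with EPHA2. MST1 stood at 7.41, 12.8 and 11.2 in human columns and at 0 in mouse columns, and it has near-identical human copies (MST1L, MST1P2), so that its value is uncertain. Without brain tumor 2 the count of human pairs was 4 in place of 8, since JAG2 (adjusted p = 0.0559), LGR4 (0.253) and DAG1 (0.0816) were no longer called. The laminin receptor chain ITGA3 (647, 638 and 663 against 23.5, 12.5 and 22.7) was paired with LAMA5, and DAG1, dystroglycan, with AGRN and HSPG2. ITGB4, the integrin chain of hemidesmosomes, was also human-higher (393, 343 and 344 against 7.23, 3.36 and 3.07).

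The mouse pairs were led by PTN with PTPRZ1, a growth factor and receptor phosphatase of glia (102, 109 and 72.4 for PTN with 0 in human columns, 115, 121 and 113 for PTPRZ1). FGF1 with FGFR3, IL34 with CSF1R, CX3CL1 with CX3CR1 and CXCL12 with CXCR4 followed, with MIF and CD74 among them by the uncertain human MIF. CD74, the invariant chain of antigen presenting cells, varied from tumor to tumor (86.8, 15.1 and 2.44) and was lowest in brain tumor 3. Because the mouse compartment held many cell types, members of a pair within it need not come from neighbouring or different cells. Without genes whose human gene was under an RPKM of 1 in all 5 libraries, the count of pairs with both members mouse-higher was 4 in place of 26, and that of pairs from human ligand to mouse receptor was 5 in place of 11.

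**Figure D5:**
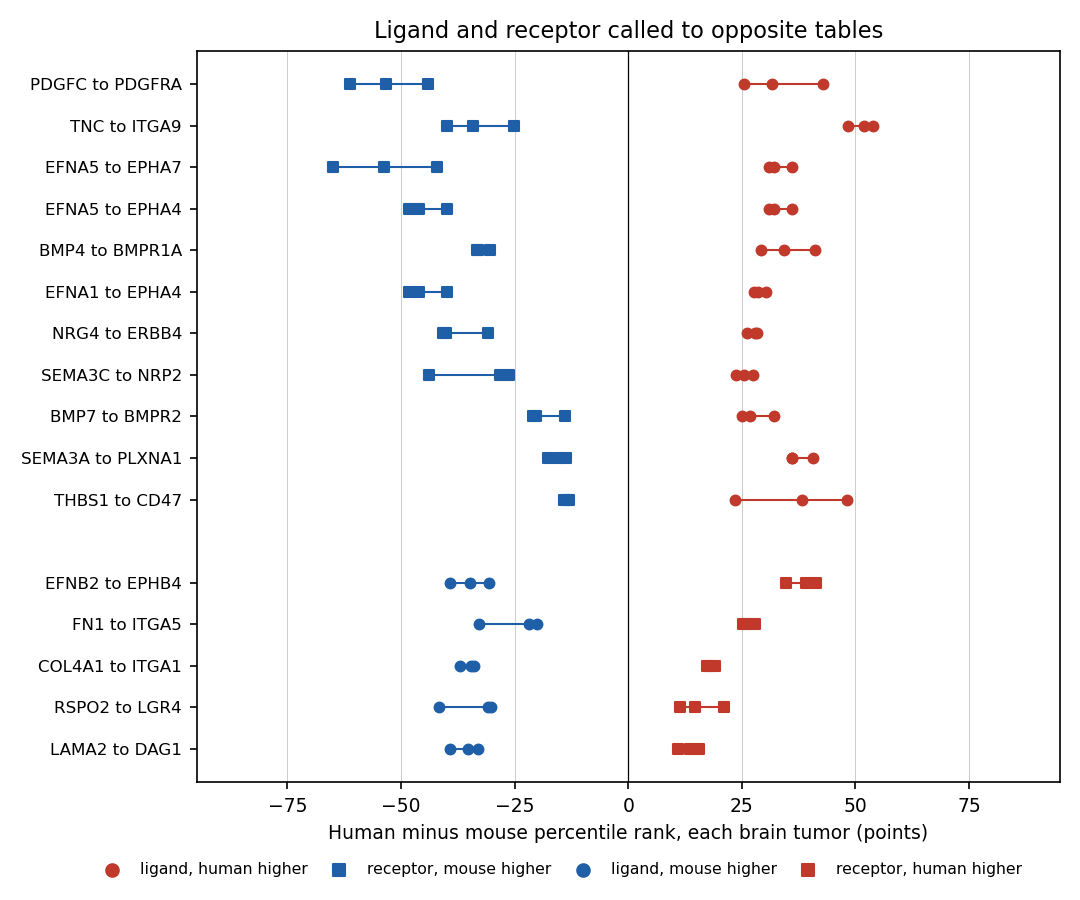
Human minus mouse percentile rank (points) in each of 3 brain tumors for 16 pairs whose ligand (circles) and receptor (squares) were called to opposite tables. The upper 11 pairs have the ligand on the human side, the lower 5 the ligand on the mouse side, and each line joins the 3 libraries of a gene. Libraries of a gene lie on one side of 0 in every pair shown.

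The difference was stable between tumors for most genes: its SD over the 3 libraries had a median of 3.18 points, and in 353 genes the range exceeded 30 points. Among genes with an RPKM of at least 5 in every library of a table, CBLN3, MT-TM, TGFBR3L, COL3A1, C4A and SORBS2 had the widest ranges. C4A has a near-identical copy, C4B, and is uncertain. TGFBR3L was called human-higher without brain tumor 3 (37.9 points, adjusted p = 0.0349). CBLN3, made by granule neurons of the cerebellum, had mouse RPKM of 20.6, 0.194 and 145 with human RPKM of 6.95, 8.35 and 7.31, so that it ranked higher in the human table in brain tumor 2 and higher in the mouse table in brain tumor 3. The site of each tumor in the brain is not given in the labels. PENK, an enkephalin precursor, also ranged widely within the mouse table (41.9, 200.2 and 98.4), with brain tumor 2 highest, as did ZIC1 (38.1, 14.6 and 93.5).

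At the other end, the 6 genes with an RPKM of at least 100 in every library of both tables and the smallest difference were MT-CO1, RPLP1, PPP2R1A, MT-ND5, TKT and CD9. CD9, a tetraspanin, stood at 204, 166 and 210.4 in human and 188, 124 and 104 in mouse columns. TKT, transketolase, stood at 352, 380.5 and 470.2 against 289.8, 255 and 276. Among ligands, APP, PSAP and GRN were of this kind, each near the top of both tables, with PSAP at 1039, 1075 and 976 in human and 1037, 1036 and 899 in mouse columns.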

How the data were processed

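The authors deposited RPKM per gene in 1 human and 1 mouse table, with builds hg38 (GRCh38) and mm10 (GRCm38) per the submitters' processing notes. Not given in the sources used here were the aligner, the counter, the gene lengths and how reads were split by species. Columns were joined to the 3 brain tumors by the library numbers in the labels, with 0 columns unmapped, and the 2 lung tumors entered no comparison. Whole reads were recovered from the RPKM for the depth and are lower bounds. RPKM were ranked within each whole table and library (ties averaged), and human minus mouse percentiles of the same library were fitted with limma 3.58.1 in R 4.3.3 (intercept only, eBayes with a trend). The test was limma's treat against 10 points in both directions, with Benjamini-Hochberg adjustment over 12143 genes that reached an RPKM of 1 in at least 2 libraries of one table (1101 joined genes did not). Residual degrees of freedom were 2, and 5.68 after eBayes. The code was tested on simulated data.

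The 2 values of a gene come from the same library, and this pairing is the block of the fit. Alternatives were other ranks, log2 scales, filters, minimum differences, variance models, a fit without the block and each library left out. Members, gene lists and pairs were chosen with earlier results of these data known, and lists are described by counts and medians. Genes named were the 12 called genes with the largest difference in each direction (RPKM of at least 10), up to 4 called genes per list, the leading pairs, the 6 widest and the 6 smallest differences. Others beside them, such as SPP1, MAP2, MBP, EGFR and VEGFA, were chosen after their values were seen. Some genes that the rule names are not reported here. Sequences were not used here.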

Additional observations from a re-analysis of the deposited data

How the results depend on the processing

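No gene was called to the opposite table under any alternative tried, and 0 of the genes named by rule reversed. With the smaller minimum difference of 5 points the counts were 3875 human-higher and 3473 mouse-higher genes, with 46 pairs on the mouse side and 11 from mouse ligand to human receptor. With 20 points they were 1092 and 1308 genes, and the pairs numbered 12 with both members mouse-higher, 2 with both human-higher, 6 from human ligand to mouse receptor and 1 from mouse ligand to human receptor. The centred log2(RPKM + 1) scale gave 2966 and 3225 genes and 41 mouse pairs, and log2(RPKM + 0.1) gave 41 mouse pairs and 10 from mouse ligand to human receptor. Without a variance trend the human pairs were 4. Leaving out each tumor gave 2220 to 2774 human-higher and 2153 to 2636 mouse-higher genes. The pairs ranged from 9 to 10 (human ligand, mouse receptor), 3 to 7 (mouse ligand, human receptor), 4 to 8 (both human) and 21 to 26 (both mouse). Without genes whose human gene was under an RPKM of 1 in all 5 libraries, a setting chosen after seeing the data, 1534 genes were mouse-higher, the mouse pairs were 4 and the pairs from human ligand to mouse receptor 5. A larger minimum difference lowers the counts and a smaller one raises them by construction. The cause of the other changes was not tested. Of the genes named in the text, calls were also lost for CCR1, MYH11 and RSPO2 with ranks among the joined genes (adjusted p = 0.167, 0.343 and 0.243) and on the quantile normalized log2 scale (0.243, 0.787 and 0.654), there also for CCL20 (0.0590). Without a variance trend they were lost for BST2, CD47, DAG1, LAMA5 and LGR4 (0.0855, 0.0528, 0.0979, 0.107 and 0.0830), and with the filter at an RPKM of 5 for CD47 (0.0504).

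Without the block for the library, that is without pairing the human and mouse values of a tumor, 2689 genes were human-higher and 2572 mouse-higher, and the pairs numbered 11, 6, 7 and 25 in the order above. LGR4 was then not called (adjusted p = 0.0652). The human data of brain tumor 3 and the mouse data of brain tumor 1 were the shallowest, so that low values there are the least certain.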
